A study of Mus musculus with 8 samples.

Results

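The 33 genes described here make, sense, move, store and export cholesterol, and they were measured by RNA sequencing in embryonic stem cells (ESCs), in Sertoli cell-like cells (SCLCs) made from them and in primordial germ cell-like cells (PGCLCs) taken from testicular organoids. They were chosen from a fixed gene list by what they do, and all 33 were found among the 46078 gene IDs counted. They fell into 7 mevalonate enzymes, 11 squalene and sterol enzymes, 5 regulators of the SREBP system, 5 genes of uptake, intracellular transport and storage, and 5 genes of the LXR and export system.

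Cholesterol is built from acetyl-CoA. The mevalonate enzymes make isoprenoid units and farnesyl diphosphate, the squalene enzymes join and cyclise them into lanosterol, and the sterol enzymes trim lanosterol to cholesterol. The transcription factor SREBP2, encoded by Srebf2, switches these genes on when sterol in the endoplasmic reticulum is low, since SCAP then carries it to the Golgi for cleavage, and the INSIG proteins hold it back when sterol is plentiful. Surplus sterol is esterified for storage by SOAT1, or its oxidised forms activate the LXR receptors, which raise export through ABCA1 and ABCG1 and curb uptake through MYLIP. In the testis cholesterol is the starting material of testosterone in Leydig cells, and Sertoli cells clear lipid-rich remnants of the germ cells they nurse.

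The 8 libraries were of 4 groups in duplicate, which the submitters call biological. tcESCs are ESCs of a male line, strain C57BL/6 and genotype XY;tesco-cfp, in which a Sox9 testis enhancer drives the fluorescent protein CFP. tc;Sf1ESCs (XY;tesco-cfp;Sf1) are 1 G418-selected clone of the same line electroporated with a plasmid that expresses Sf1, the steroidogenic factor encoded by Nr5a1. SCLCs were the CFP-positive cells sorted on day 12 from tc;Sf1ESCs that had been differentiated towards testicular somatic cells, so these 3 groups share the line and the reporter. The methods give 1 medium for ESCs and others for SCLCs, so medium and cell state cannot be told apart where SCLCs are compared. PGCLCs of the fourth group, called tod-PGCLCs, were sorted on day 6 from organoids that joined epiblast-like cells with the testicular somatic cell-like cells, and came from another male C57BL/6 line (XY;Prdm1-gfp). The organoids also grew in a medium that differed from those of the ESCs and the SCLCs. Line, medium and cell type therefore cannot be told apart wherever tod-PGCLCs are compared. Sorting also set SCLCs and tod-PGCLCs apart from the ESCs, for which no sort is described. The study gives the surface marker in the sort of tod-PGCLCs differently in different places.

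The smallest library held 25411033 reads on genes and the largest 30680191, so that 3 counts equal 0.118 and 0.0978 CPM there, where CPM stands for counts per 1e+06 normalised reads. Values below give replicate 1 and then replicate 2. The transgene was checked through Nr5a1, with 1 and 0 counts for tcESCs, 52 and 30 for tc;Sf1ESCs, 341 and 535 for SCLCs and 6 and 5 for tod-PGCLCs. Summed over 8 markers of primitive and visceral endoderm, an extraembryonic tissue, the SCLC libraries had 1910 and 3297 CPM, while the ESC libraries had 7.35 to 13.3 CPM and the tod-PGCLC libraries 23.3 and 34.7 CPM. Summed over 10 Sertoli cell markers the SCLC libraries had 865 and 858 CPM, against 40.5 to 70.8 CPM in ESCs. Most of that sum was Gata4 (432 and 451 CPM) and Cited2 (329 and 302 CPM), which other tissues express too. Vnn1 (42.8 and 64.6 CPM against 0.583 to 1.98 CPM in ESCs), Sox9 (8.08 and 4.67 CPM against 0 to 0.272 CPM), Wt1 (2.35 and 0.826 CPM against 0.350 to 0.618 CPM) and Ptgds (0.235 and 1.11 CPM against 0 to 0.0389 CPM) were above every ESC library at lower levels. Dmrt1 (37.1 and 13.9 CPM against 4.65 to 14.6 CPM) overlapped the ESCs, and Amh (10 and 22 counts) and Dhh (5 and 1) were no higher in SCLCs than in ESCs. In tod-PGCLCs the Sertoli cell markers summed to 186 and 215 CPM, of which Dmrt1, which germ cells express too, made up 94.9 and 116 CPM. For 5 stromal markers the sums in SCLCs were 1008 and 1029 CPM against 6.15 to 7.47 CPM in ESCs and 28.9 and 31.4 CPM in tod-PGCLCs. Most of the stromal sum in SCLCs was Pdgfra (764 and 911 CPM), which primitive endoderm expresses too, while Col1a1 had 210 and 90.6 CPM, Acta2 20.8 and 15.0 CPM, Nr2f2 12.8 and 11.8 CPM and Tcf21 0.392 and 0.215 CPM. For 6 steroidogenic markers the sums were 8.23 and 13 CPM in SCLCs against 9.39 to 20.2 CPM in ESCs. Most of this sum was Star, with 5.80 and 8.37 CPM in SCLCs and 7.22 to 17.6 CPM in ESCs. Insl3 had 0.784 and 1.22 CPM in SCLCs, below the 1.85 to 2.82 CPM of ESCs. Cyp17a1 was above every ESC library, with 35 and 56 counts in SCLCs against 0 to 1. Cyp11a1 (5 and 37 counts) overlapped the ESCs, and Hsd3b1 and Hsd3b6 had 2 counts or fewer in every library. The 6 pluripotency markers summed to 571 and 329 CPM in SCLCs, 4312 to 4638 CPM in ESCs and 2599 to 2682 CPM in tod-PGCLCs, whose 7 germ cell markers summed to 746 and 754 CPM against 198 to 309 CPM in ESCs. Of these, Prdm1, whose reporter was used in the sort (170 and 184 CPM), Dppa3, Tfap2c, Dnd1 and Ddx4 were above every ESC library, while Dazl (185 and 99.3 CPM against 39.3 to 191 CPM) and Nanos3 (2.07 and 3.90 CPM against 1.93 to 9.19 CPM) overlapped the ESCs. For 6 neural markers the sums were 32.4 and 25.2 CPM in SCLCs, 68.5 and 67.3 CPM in tod-PGCLCs and 99.1 to 186 CPM in ESCs. In every difference below, more cells of a type and more RNA per cell cannot be told apart, and the part of these other cell types in the results was not tested.

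The promoters of the members show how many of them carry the DNA letters that the SREBP system reads. RefSeq gave 300-base windows for 26 of the 33 genes, running from 250 bases before to 50 after the start of transcription (mouse build GRCm38.p6). No window was at hand for Fdps, Fdft1, Sqle, Scarb1, Npc1, Stard4 and Abcg1. Both strands were searched for 3 motifs: TCACNCCA, a form of the sterol regulatory element, TCACNTGA, the E-box form that SREBP proteins also bind, and CCAAT, the box of the partner factor NF-Y, which reads ATTGG on the other strand. The first was found in Hmgcs1, Msmo1 and Srebf2, 3 of 26 genes (11.5%), against 4.97% of all 27025 genes with such windows. The second was found in Insig2 alone, 1 of 26 genes (3.85%), against 4.78% of all genes. CCAAT was found in 21 of 26 genes (80.8%), against 41.1% of all genes, and in 14 of the 15 synthesis enzymes with a window, Acat2 being the exception. A gene was counted if any of its windows matched, so a gene with more windows had more room for a match. Pmvk, Dhcr7, Srebf1 and Insig2 have several windows, with a CCAAT box in only some. Of all windows 37.4% held a CCAAT box, and the share by window was not computed for the members. A match is a description of the letters and not of a bound site.

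The 250 bases before the start site are shown 5′ to 3′ on the strand of the gene for the 3 genes with a TCACNCCA match and for Insig1 and Soat1, the members with a window that rose most in SCLCs. Capitals mark the matches to the 3 motifs.
Hmgcs1 (chr13:119690101-119690350, plus strand): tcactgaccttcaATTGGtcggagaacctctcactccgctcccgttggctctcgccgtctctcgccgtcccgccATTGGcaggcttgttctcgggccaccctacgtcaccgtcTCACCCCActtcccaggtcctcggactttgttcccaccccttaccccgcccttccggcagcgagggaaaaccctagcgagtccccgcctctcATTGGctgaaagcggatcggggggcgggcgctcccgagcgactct
Msmo1 (chr8:64733579-64733828, minus strand): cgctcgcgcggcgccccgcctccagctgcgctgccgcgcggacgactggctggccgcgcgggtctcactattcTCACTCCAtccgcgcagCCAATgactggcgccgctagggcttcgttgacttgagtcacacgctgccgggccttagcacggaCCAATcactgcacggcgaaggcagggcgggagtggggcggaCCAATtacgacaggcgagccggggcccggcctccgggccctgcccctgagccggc
Srebf2 (chr15:82147019-82147268, plus strand): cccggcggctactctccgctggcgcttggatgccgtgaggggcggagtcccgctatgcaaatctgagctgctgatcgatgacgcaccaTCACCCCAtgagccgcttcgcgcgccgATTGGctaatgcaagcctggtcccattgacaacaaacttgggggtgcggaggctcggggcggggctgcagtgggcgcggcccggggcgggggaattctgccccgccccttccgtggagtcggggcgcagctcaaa
Insig1 (chr5:28071162-28071411, plus strand): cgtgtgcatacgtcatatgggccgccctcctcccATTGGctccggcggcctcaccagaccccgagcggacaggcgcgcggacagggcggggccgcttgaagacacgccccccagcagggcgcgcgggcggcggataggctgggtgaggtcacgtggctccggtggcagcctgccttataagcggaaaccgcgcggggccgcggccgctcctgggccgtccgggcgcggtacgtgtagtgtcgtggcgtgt
Soat1 (chr1:156474329-156474578, minus strand): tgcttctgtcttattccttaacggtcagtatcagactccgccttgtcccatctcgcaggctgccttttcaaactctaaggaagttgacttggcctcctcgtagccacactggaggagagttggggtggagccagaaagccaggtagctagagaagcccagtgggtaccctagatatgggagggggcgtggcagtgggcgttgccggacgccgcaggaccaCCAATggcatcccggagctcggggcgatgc
The TCACNCCA match began 137 bases before the start in Hmgcs1, 177 in Msmo1 and 162 in Srebf2. Hmgcs1 and Msmo1 each had 3 CCAAT boxes in this stretch, which read ATTGG in Hmgcs1 and CCAAT in Msmo1. No match overlapped that of another motif. Insig1 and Soat1 had 1 CCAAT box each, 216 and 30 bases before the start, and neither of the other motifs.

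Levels between genes were compared per length, as CPM per kilobase of exon. On this scale the enzymes of 1 pathway stood far apart in every group. In tcESCs Hmgcs1, which condenses acetoacetyl-CoA into HMG-CoA, had the highest level of the 18 synthesis enzymes (59.5 ± 1.1, mean ± SD, n = 2), and Fdft1 (34.9 ± 1.8), Acat2, the cytosolic thiolase (30.2 ± 0.75), and Sqle, the squalene epoxidase (28.8 ± 0.32), followed. Fdft1 makes squalene, and 18.3% of its exons overlap exons of Ctsb on the other strand. At the low end were Fdps (0.813 ± 0.057), Hsd17b7 (3.36 ± 0.073) and Idi1 (3.85 ± 0.29). The value of Fdps, the farnesyl diphosphate synthase, is uncertain, since 26.7% of its exons overlap those of Gm43738 on the same strand and reads that fit more than 1 gene or place were set aside. On the other strand, Scap shares 13.2% of its exons with 5830462I19Rik, Npc1 4.52% with Rmc1, Cyp51 3.76% with Akap9, Lss 3.53% with 4930483K19Rik and Srebf1 1.93% with Rai1, and Nr1h3 shares 1.35% with Gm13783 on its own strand. The values of these genes and of Fdft1 are uncertain to that extent, since the strand setting of the counting is not known here. Among the other members, Npc2, a lysosomal cholesterol carrier (62.1 ± 0.84), Srebf2 (47.8 ± 0.64) and Insig1 (41.5 ± 0.81) were the highest in tcESCs. Nr1h3, which encodes LXRα, was the lowest (0.282 ± 0.089) and rested on 14 to 22 counts in the ESC libraries and 4 to 9 counts in the others.

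In SCLCs this order was different at the top. Insig1 had the highest length-scaled level of all 33 (168 ± 22), and Soat1 (64.9 ± 1.5), Npc2 (61.9 ± 5.2) and Hmgcs1 (60.7 ± 7.6) had levels that did not differ beyond their spread, with Stard4 (54.4 ± 1.7) and Srebf2 (54.2 ± 0.86) next. In tcESCs Soat1 had stood at 3.44 ± 0.059 on the same scale.

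**Figure D1:**
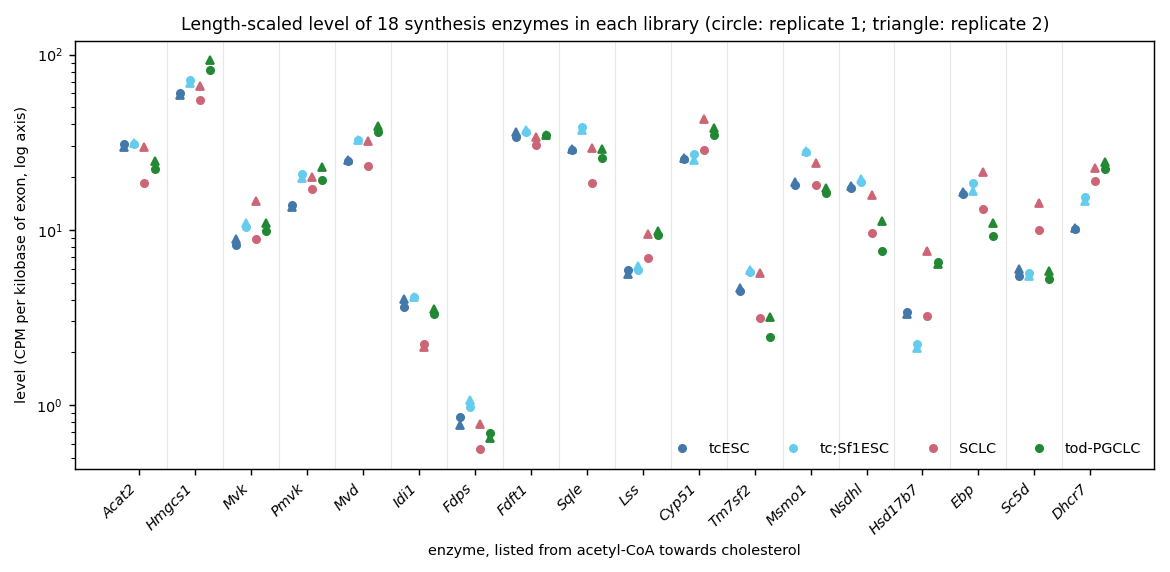
Level of each of the 18 synthesis enzymes in each library, in CPM per kilobase of exon on a log axis, with enzymes in pathway order and groups by colour. Group means run from 0.668 for Fdps in SCLCs to 87.4 for Hmgcs1 in tod-PGCLCs, and the triangles of SCLC replicate 2 sit above the circles of replicate 1 for 17 of the 18 enzymes.

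The first comparison set tc;Sf1ESCs against tcESCs and bears on the Sf1 transgene in undifferentiated cells, where transgene and clone cannot be told apart. All members but Mylip differed by less than 2-fold. Of 33 members 1 was called, meaning an adjusted p under 0.05 and a fold change over 2: Mylip was lower, against 5.63% of all 16481 genes tested that were lower, and 0 members were called higher by edgeR, against 6.04% of all genes. DESeq2 also called 0 higher, and 8 members were higher at an unadjusted p under 0.05. In all 11.7% of genes were called. The median log2 fold change was 0.08 over the members and 0.00077 over all genes. Every adjusted p below comes from the edgeR quasi-likelihood fit, corrected by the Benjamini-Hochberg method across all tested genes, with n = 2 libraries in each group, and log2 fold changes carry their SE.

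Mylip, an E3 ubiquitin ligase that marks lipoprotein receptors for breakdown and is an LXR target, had 24.9 and 22.8 CPM in tcESCs and 10.8 and 10.1 CPM in tc;Sf1ESCs. Both tc;Sf1ESC libraries were lower than both tcESC libraries, at 2.29-fold (log2 -1.19 ± 0.26, adjusted p = 0.0131). The call was lost with any 1 of the 4 libraries left out, when the adjusted p ran from 0.0738 to 0.108. The export pumps Abca1 and Abcg1 were also lower by less than 2-fold. Abca1, which loads cholesterol onto apolipoprotein A-I, had 67.0 and 66.3 CPM in tcESCs and 47.0 and 47.0 CPM in tc;Sf1ESCs (log2 -0.51 ± 0.09, adjusted p = 0.00472). Abcg1, which passes cholesterol to lipoprotein particles, had a log2 fold change of -0.60 ± 0.12 (adjusted p = 0.00797). For the LXR receptors Nr1h2 and Nr1h3 the log2 fold changes were 0.04 ± 0.08 and -0.17 ± 0.43, which did not pass.

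With no limit on the fold, 11 of 33 members passed in this comparison, 6 higher and 5 lower, against 32.7% of all genes. The higher ones were Npc2, Msmo1, Dhcr7, Pmvk, Insig1 and Soat1, at log2 fold changes of 0.24 to 0.68. Npc2 had 335 and 341 CPM in tcESCs and 542 and 541 CPM in tc;Sf1ESCs, the largest rise among the members (0.68 ± 0.07, adjusted p = 0.000704). Srebf2 and Npc1 were lower, at -0.18 and -0.34, along with Abca1, Abcg1 and Mylip. The p-values and SE here rest on a spread pooled with the SCLC libraries, which are in the same fit. Over the members, the SCLC pair differed with an SD of 0.34 in log2, the tcESC pair with 0.13 and the tc;Sf1ESC pair with 0.10. Which members passed therefore depends in part on the SCLCs, and a member that did not pass may still differ between these ESCs. The 18 enzymes had a median of 0.17, and 16 of 18 had a value above 0. In 14 of the 18, both tc;Sf1ESC libraries lay above both tcESC libraries, and in 1 both lay below, while 3 enzymes passed. By edgeR 0 were called and by DESeq2 0, while 5 were higher and 0 lower at an unadjusted p under 0.05. Msmo1 (0.61 ± 0.12), a methylsterol oxidase, and Mvd (0.38 ± 0.14), the mevalonate diphosphate decarboxylase that did not pass, lie on chromosome 8, where the median of all 864 genes tested was 0.47, and Pmvk (0.57 ± 0.10), the phosphomevalonate kinase, lies on chromosome 3, where the median of 833 genes was 0.20. The part of these chromosome-wide shifts in the values was not tested.

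None of the SREBP regulators was called. Srebf2 had 347 and 340 CPM in tcESCs and 308 and 299 CPM in tc;Sf1ESCs, and Srebf1, which encodes the SREBP1 proteins that act mostly on fatty acid genes, had 149 and 153 CPM and 158 and 162 CPM. Scap, the sterol-sensing escort, had 49.5 and 48.6 CPM and 43.5 and 45.1 CPM. Insig1 had 127 and 130 CPM in tcESCs and 158 and 165 CPM in tc;Sf1ESCs (0.33 ± 0.09, adjusted p = 0.0359), and Insig2, its paralog, 20.4 and 19.9 CPM and 18.4 and 16.8 CPM. Of these 5 genes Srebf2 and Insig1 passed, on p and not on the fold.

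**Figure D2:**
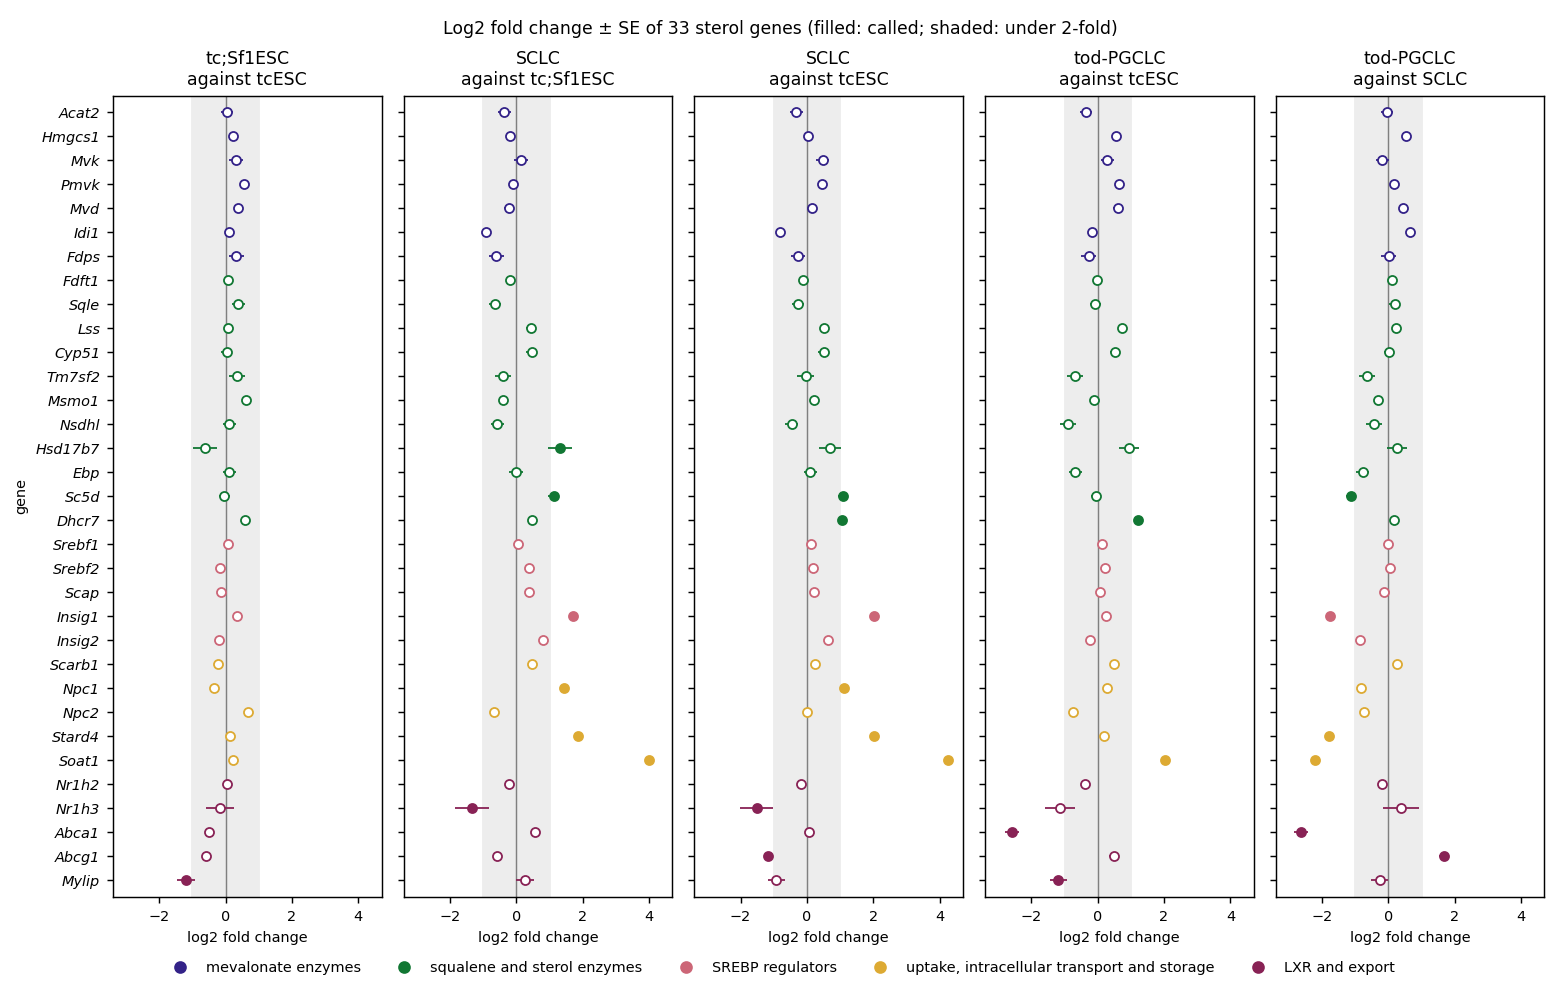
Log2 fold change of each of the 33 members in the 5 comparisons, with horizontal bars for the SE, filled points for called members, colours for roles and a grey band for under 2-fold. Most points lie within the band, while Soat1 stands at 4.01 and 4.24 in the SCLC panels and at 2.03 in tod-PGCLCs against tcESCs.

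The second comparison and the third set SCLCs against the tc;Sf1ESCs they came from and against tcESCs. The second asks what differs in the CFP-positive cells sorted after 12 days of differentiation. Differentiation and selection by the sort cannot be told apart there. In the third the Sf1 transgene and the clone differ as well and cannot be told apart from differentiation. Both use the same SCLC libraries. Against tc;Sf1ESCs, Soat1, Stard4, Insig1, Npc1, Hsd17b7 and Sc5d rose and Nr1h3 fell, so 7 of 33 members were called, 6 higher and 1 lower, where 42.2% of all genes were called, 24.1% higher and 18.1% lower. Against tcESCs, Soat1, Insig1, Stard4, Npc1, Sc5d and Dhcr7 rose and Nr1h3 and Abcg1 fell, so 8 of 33 were called, 6 higher and 2 lower, where 42.7% of all genes were called, 24.3% higher and 18.3% lower. The share of members called lay below the share of all genes in both. The median log2 fold change over members was 0.05 against tc;Sf1ESCs and 0.16 against tcESCs, beside 0.02 and 0.05 over all genes.

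Of the members, Soat1 had the largest rise in both comparisons. Soat1, which esterifies cholesterol for storage in droplets, had 33.3 and 34.1 CPM in tcESCs, 41.0 and 38.5 CPM in tc;Sf1ESCs, and 646 and 625 CPM in SCLCs. Both SCLC libraries stood far above all 4 ESC libraries, 16.1-fold above tc;Sf1ESCs (log2 4.01 ± 0.07, adjusted p = 6.92e-08) and 18.9-fold above tcESCs (4.24 ± 0.07, adjusted p = 5.49e-08). Among all genes tested, 934 (5.67%) rose further against tc;Sf1ESCs and 758 (4.6%) against tcESCs.

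Stard4, a soluble carrier that moves sterol between membranes, had 78.5 and 73.2 CPM in tcESCs, 83.6 and 83.3 CPM in tc;Sf1ESCs and 311 and 297 CPM in SCLCs. The groups did not overlap, and SCLCs were 3.66-fold above tc;Sf1ESCs (log2 1.87 ± 0.07, adjusted p = 7.08e-07) and 4.02-fold above tcESCs (2.01 ± 0.07, adjusted p = 5.52e-07). Npc1, the membrane protein that lets cholesterol out of lysosomes, had 91.7 and 89.0 CPM in tcESCs, 70.3 and 72.6 CPM in tc;Sf1ESCs and 190 and 198 CPM in SCLCs. It was 2.73-fold above tc;Sf1ESCs (1.45 ± 0.06, adjusted p = 1.46e-06) and 2.16-fold above tcESCs (1.11 ± 0.06, adjusted p = 4.26e-06). Its lysosomal partner Npc2 did not follow, with 317 and 357 CPM in SCLCs, and -0.68 ± 0.07 on the log2 scale over tc;Sf1ESCs (adjusted p = 0.000107) and -0.0011 ± 0.07 over tcESCs (adjusted p = 0.989). Scarb1, a receptor for high-density lipoprotein, had 62.8 and 69.9 CPM in SCLCs against 46.6 to 57.6 CPM in the ESC libraries, at 0.47 ± 0.08 and 0.25 ± 0.08, which passed on p and not on the fold.

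Of the SREBP regulators, Insig1 was called. It had 568 and 471 CPM in SCLCs, above the 127 to 165 CPM of the 4 ESC libraries, 3.24-fold over tc;Sf1ESCs (log2 1.69 ± 0.10, adjusted p = 5.07e-06) and 4.06-fold over tcESCs (2.02 ± 0.10, adjusted p = 2.46e-06). Insig2 had 31.5 and 30.1 CPM, at 0.82 ± 0.09 and 0.62 ± 0.09, under 2-fold with adjusted p of 0.000177 and 0.000722. Srebf2 had 385 and 394 CPM, at 0.37 ± 0.06 over tc;Sf1ESCs and 0.19 ± 0.06 over tcESCs, and both passed on p. Scap had 49.9 and 64.3 CPM and Srebf1 142 and 188 CPM, and for Srebf1 the SCLC libraries spanned the ESC values (0.05 ± 0.12 and 0.13 ± 0.12).

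The synthesis enzymes did not move as a block. Of 18, 2 were called higher against tc;Sf1ESCs, Hsd17b7 and Sc5d, 2 were called higher against tcESCs, Sc5d and Dhcr7, and none was called lower in either. Their medians were -0.19 and 0.13. DESeq2 called 0 enzymes lower as well, and at an unadjusted p under 0.05 there were 6 lower against tc;Sf1ESCs and 1 against tcESCs. Sc5d, a sterol desaturase late in the pathway, had 26.7 and 29.0 CPM in tcESCs, 27.7 and 26.6 CPM in tc;Sf1ESCs and 48.8 and 69.2 CPM in SCLCs, 2.18-fold above tc;Sf1ESCs (log2 1.13 ± 0.16, adjusted p = 0.000488) and 2.12-fold above tcESCs (1.09 ± 0.16, adjusted p = 0.00058). Dhcr7, the reductase of the last step to cholesterol, had 58.5 and 59.6 CPM in tcESCs, 89.9 and 85.5 CPM in tc;Sf1ESCs and 111 and 132 CPM in SCLCs, and was 2.06-fold above tcESCs (1.04 ± 0.09, adjusted p = 4.34e-05), where tc;Sf1ESCs already stood at 0.57 ± 0.09. Hsd17b7, a sterol ketone reductase, had 11.4 and 10.9 CPM in tc;Sf1ESCs and 16.6 and 38.6 CPM in SCLCs, so the SCLC libraries differed from each other more than the lower one did from the ESCs (1.32 ± 0.35, adjusted p = 0.0111).

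The lowest value among the enzymes in both comparisons was that of Idi1. Idi1, which isomerises isopentenyl diphosphate, had 14.4 and 14.5 CPM in tc;Sf1ESCs and 7.80 and 7.47 CPM in SCLCs, just under 2-fold lower (log2 -0.91 ± 0.12, adjusted p = 0.000409). Sqle (-0.65 ± 0.18), Fdps (-0.60 ± 0.22), Nsdhl (-0.58 ± 0.20) and Msmo1 (-0.41 ± 0.12) also passed on p against tc;Sf1ESCs, while Dhcr7 (0.47 ± 0.09), Cyp51 (0.47 ± 0.17), the lanosterol demethylase, and Lss (0.44 ± 0.14), the lanosterol synthase, passed in the other direction. With no limit on the fold, 23 of 33 members passed against tc;Sf1ESCs, 14 higher and 9 lower, beside 72.6% of all genes, and 16 passed against tcESCs, 12 higher and 4 lower, beside 72.9%. Of the 7 mevalonate enzymes, 2 passed against tc;Sf1ESCs, both lower, and against tcESCs Pmvk (0.45 ± 0.10) was higher and Idi1 (-0.82 ± 0.12) lower. Against tcESCs the median over all genes was 0.18 on chromosome 3, which holds Pmvk, and 0.58 on chromosome 8, which holds Mvd and Msmo1.

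On the LXR and export side the calls were downward. Abcg1 had 19.3 and 20.8 CPM in tcESCs, 13.1 and 13.5 CPM in tc;Sf1ESCs and 8.31 and 9.27 CPM in SCLCs, with no overlap between any of these groups, and SCLCs were 2.28-fold below tcESCs (log2 -1.19 ± 0.12, adjusted p = 8.33e-05), where tc;Sf1ESCs already stood at -0.60 ± 0.12. Nr1h3 had 22 and 17 counts in tcESCs, 19 and 14 in tc;Sf1ESCs and 4 and 9 in SCLCs, and was called lower against tc;Sf1ESCs (-1.34 ± 0.51, adjusted p = 0.0476) and tcESCs (-1.51 ± 0.50, adjusted p = 0.0281). DESeq2 did not call it, with adjusted p of 0.137 and 0.0842. Nr1h2, which encodes LXRβ, ranged from 88.1 to 121 CPM over all 8 libraries, with 95.8 and 105 CPM in SCLCs, at -0.23 ± 0.08 and -0.19 ± 0.08. Abca1 had 63.9 and 74.6 CPM in SCLCs, at 0.57 ± 0.09 over tc;Sf1ESCs (adjusted p = 0.000738) and 0.06 ± 0.09 over tcESCs. Mylip had 8.63 and 16.2 CPM in SCLCs, at 0.26 ± 0.27 over tc;Sf1ESCs, which did not pass, and -0.93 ± 0.26 against tcESCs, which passed on p (adjusted p = 0.0136).

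**Figure D3:**
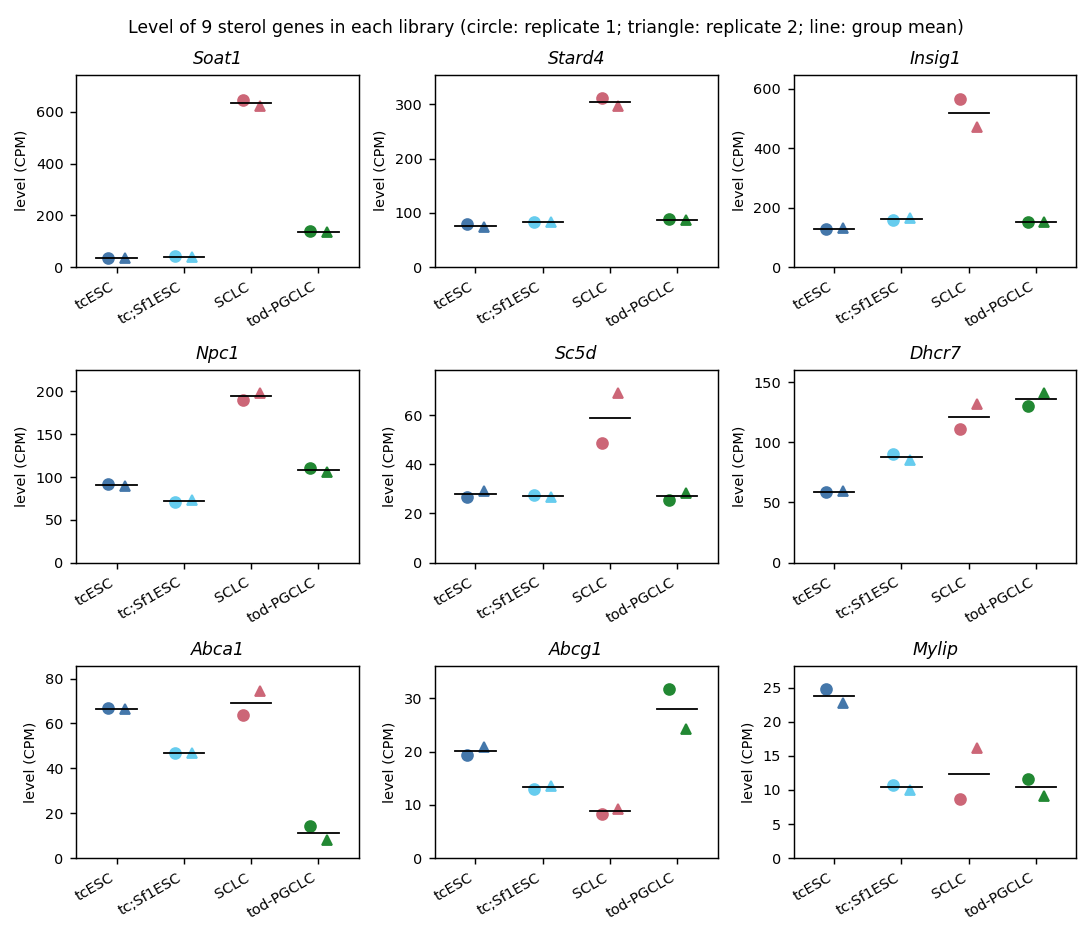
Level in CPM of 9 members in each of the 8 libraries, with circles for replicate 1, triangles for replicate 2 and lines for group means. Soat1, Stard4, Insig1 and Npc1 have both SCLC libraries above every other library, and Abca1 has both tod-PGCLC libraries, at 14.3 and 8.04 CPM, below every other library.

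The SCLC libraries differed from each other in most members, with 28 of 33 higher in replicate 2. The SD of the log2 difference between these libraries was 0.52 over all genes and 0.34 over the members. How many of all genes were higher in replicate 2 was not counted. Of 18 enzymes, 17 were higher in SCLC replicate 2, with a median log2 ratio of replicate 2 to replicate 1 of 0.49. The medians were 0.02 in tcESCs, 0.0056 in tc;Sf1ESCs and 0.13 in tod-PGCLCs, where 16 of 18 were higher in replicate 2. The ratios ran from -0.06 for Idi1 to 1.22 for Hsd17b7, and included 0.86 for Tm7sf2, a sterol reductase, 0.73 for Nsdhl, a sterol dehydrogenase, and 0.71 for Mvk, the mevalonate kinase. The summed level of the 18 enzymes was 1199 and 1630 CPM in the SCLC libraries, a span that held the 1258 and 1274 CPM of tcESCs and the 1518 and 1495 CPM of tc;Sf1ESCs. Outside the enzymes, all 5 LXR and export genes were higher in replicate 2, with 1.04 for Nr1h3 and 0.91 for Mylip, and Srebf1 (0.41) and Scap (0.36) were higher too. Insig1 had the opposite sign (-0.27), and Stard4 (-0.07), Soat1 (-0.05) and Npc1 (0.06) were at like levels in both libraries. The same replicate 2 had the higher sum of endoderm markers and the lower sum of pluripotency markers given above, and their part in the difference was not tested.

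Calls among the enzymes rested on that library. Without SCLC replicate 2, Hsd17b7 against tc;Sf1ESCs stood at 0.57, Sc5d at 0.85 against tc;Sf1ESCs and 0.81 against tcESCs, and Dhcr7 at 0.91 against tcESCs, all under 2-fold, while Sqle against tc;Sf1ESCs (-1.02) and Mylip against tcESCs (-1.46) were called lower. Without SCLC replicate 1, Hsd17b7 was called against tcESCs as well (1.19), and Nr1h3 was called in neither comparison. Over 12 alternatives Hsd17b7 lost its call against tc;Sf1ESCs in 2, without SCLC replicate 2 and in a further alternative. Soat1, Stard4, Insig1 and Npc1 were called with either library left out.

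**Figure D4:**
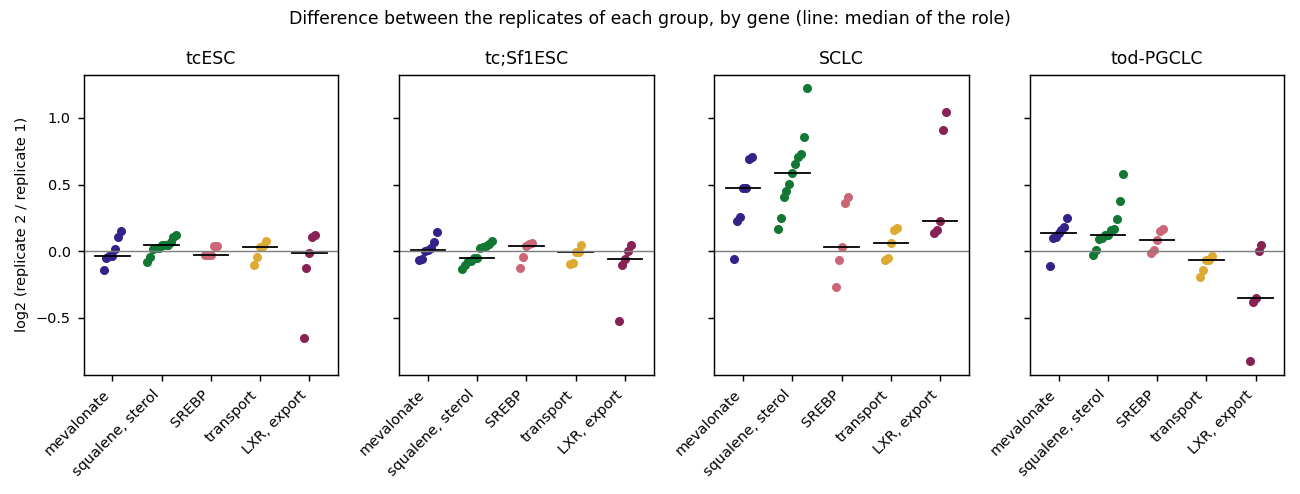
Log2 ratio of replicate 2 to replicate 1 for each member in each group, split by role, with a line at the median of the role. The mevalonate enzymes and the squalene and sterol enzymes have medians of 0.47 and 0.59 in SCLCs, while the medians of all 5 roles lie between -0.06 and 0.05 in both kinds of ESC.

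The fourth comparison set tod-PGCLCs against tcESCs. Soat1 and Dhcr7 were higher and Abca1 and Mylip were lower, so 4 of 33 members were called, 2 higher and 2 lower, where 29.4% of the 16707 genes tested were called, 18.1% higher and 11.2% lower. The median log2 fold change was 0.08 over the members and 0.03 over all genes. With no limit on the fold 21 of 33 passed, 14 higher and 7 lower, beside 62.0% of all genes.

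Abca1 had 67.0 and 66.3 CPM in tcESCs and 14.3 and 8.04 CPM in tod-PGCLCs. Both tod-PGCLC libraries lay far below all others, 5.96-fold below tcESCs (log2 -2.58 ± 0.21, adjusted p = 1.53e-05), and 402 of all genes tested (2.41%) fell further. The other LXR target of export, Abcg1, had 31.7 and 24.3 CPM in tod-PGCLCs, above the 19.3 and 20.8 CPM of tcESCs (0.48 ± 0.14, adjusted p = 0.0155). Mylip had 11.6 and 9.11 CPM, 2.29-fold below tcESCs (-1.20 ± 0.26, adjusted p = 0.00337). Nr1h2 had 88.1 and 88.3 CPM (-0.39 ± 0.07, adjusted p = 0.00173) and Nr1h3 had 9 and 9 counts (-1.14 ± 0.45, adjusted p = 0.0524). Of these 3 genes, all known as LXR targets, Abca1 and Mylip were thus called lower and Abcg1 was higher by less than 2-fold.

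Soat1 had 140 and 134 CPM in tod-PGCLCs, 4.08-fold above tcESCs (log2 2.03 ± 0.07, adjusted p = 1.87e-07), and no tod-PGCLC library overlapped an ESC library. The rest of the transport group moved by less than 2-fold. Scarb1 (0.50 ± 0.09), Npc1 (0.26 ± 0.06) and Stard4 (0.20 ± 0.06) were higher and Npc2, with 213 and 193 CPM, was lower (-0.73 ± 0.08, adjusted p = 6.36e-05), all passing on p. Among the SREBP regulators, Insig1 had 153 and 152 CPM (0.25 ± 0.09) and Srebf2 380 and 425 CPM (0.23 ± 0.07), both passing on p, and Insig2 (17.1 and 17.1 CPM), Scap (49.0 and 54.4 CPM) and Srebf1 (159 and 168 CPM) did not pass. Srebf1 lies on chromosome 11, where the median of the 1344 genes tested was 0.52, while its own value was 0.11 ± 0.11.

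Of the 18 enzymes, Dhcr7 alone was called, with 130 and 142 CPM in tod-PGCLCs, 2.3-fold above tcESCs (log2 1.20 ± 0.09, adjusted p = 1.05e-05). On p alone 7 were higher and 3 lower. The higher ones included 3 mevalonate enzymes, Hmgcs1 (0.55 ± 0.10), Pmvk (0.63 ± 0.11) and Mvd (0.60 ± 0.13), with Hmgcs1 at 376 and 427 CPM against 277 and 270 CPM. Among the squalene and sterol enzymes Lss (0.74 ± 0.13), Cyp51 (0.52 ± 0.16) and Hsd17b7 (0.94 ± 0.31) were higher, and Nsdhl (-0.90 ± 0.23), Tm7sf2 (-0.69 ± 0.25) and Ebp, a sterol isomerase (-0.68 ± 0.20), were lower. Tm7sf2 is uncertain too, since 12.1% of its exons overlap those of Vps51 on the same strand. The summed level of the enzymes was 1461 and 1609 CPM, above both tcESC libraries.

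The fifth comparison set tod-PGCLCs against SCLCs, the germ cell-like cells and the supporting cell-like cells of the study. Abca1, Soat1, Stard4, Insig1 and Sc5d were lower in tod-PGCLCs and Abcg1 was higher, so 6 of 33 members were called, 1 higher and 5 lower, where 38.0% of all genes were called, 18.5% higher and 19.5% lower. With no limit on the fold 17 passed, 5 higher and 12 lower, beside 69.7% of all genes. The median was -0.04 over the members and 0.01 over all genes.

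The export pumps differed in opposite directions. Abca1 had 63.9 and 74.6 CPM in SCLCs and 14.3 and 8.04 CPM in tod-PGCLCs (6.2-fold lower, log2 -2.63 ± 0.21, adjusted p = 7.4e-06), while Abcg1 had 8.31 and 9.27 CPM in SCLCs and 31.7 and 24.3 CPM in tod-PGCLCs (3.18-fold higher, log2 1.67 ± 0.15, adjusted p = 1.32e-05). Neither gene's groups overlapped. Soat1 was 4.63-fold lower in tod-PGCLCs (-2.21 ± 0.06, adjusted p = 4.88e-08), Stard4, with 88.3 and 86.1 CPM in tod-PGCLCs, 3.49-fold lower (-1.80 ± 0.06, adjusted p = 1.14e-07) and Insig1 3.4-fold lower (-1.77 ± 0.09, adjusted p = 5.92e-07). Npc1 (-0.84 ± 0.06), Insig2 (-0.85 ± 0.10) and Npc2 (-0.73 ± 0.08) were lower by under 2-fold and passed on p.

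Among the enzymes Sc5d was called, with 25.5 and 28.5 CPM in tod-PGCLCs (2.19-fold lower, log2 -1.13 ± 0.15, adjusted p = 0.000182), and it fell under 2-fold without SCLC replicate 2 (-0.86). The median over the 18 was 0.07. Of the 7 mevalonate enzymes, Hmgcs1 (0.53 ± 0.10), Mvd (0.44 ± 0.13) and Idi1 (0.65 ± 0.13) were higher on p, and of the 11 squalene and sterol enzymes Sc5d, Ebp (-0.78 ± 0.20), Tm7sf2 (-0.64 ± 0.25) and Msmo1 (-0.32 ± 0.12) were lower on p and none was higher. Mvd and Msmo1 lie on chromosome 8, where the median of 870 genes was -0.54. Acat2, Fdps, Cyp51, Srebf1 and Srebf2 had log2 values between -0.04 and 0.05 and did not pass.

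Of 36 other genes of the same pathways, 35 were tested. The exception was Ch25h, a cholesterol hydroxylase, at 2 counts or fewer in every library. Fnta, a subunit of protein farnesyltransferase, was called higher in tc;Sf1ESCs, at 164 and 164 CPM, than in tcESCs, at 67.7 and 73.1 CPM (log2 1.22 ± 0.08, adjusted p = 0.000125), and it lies on chromosome 8, whose median is given above. In SCLCs 9 of the 35 were called above and 4 below tc;Sf1ESCs, and 8 above and 4 below tcESCs, where 24.1% and 18.1%, and 24.3% and 18.3%, of all genes were called above and below.

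Among these genes the largest rises in SCLCs, against either kind of ESC, were of Lipa, Vldlr and Cyp27a1. Lipa, the lysosomal acid lipase that frees cholesterol from its esters, had 2.68 and 2.75 CPM in tc;Sf1ESCs and 64.6 and 64.8 CPM in SCLCs (log2 4.58 ± 0.11, adjusted p = 1.44e-07). Vldlr, a lipoprotein receptor, had 1.63 and 2.86 CPM and 60.4 and 40.1 CPM (4.48 ± 0.29, adjusted p = 1.04e-05). Cyp27a1, a mitochondrial sterol hydroxylase, had 19.6 and 17.5 CPM against 0.631 and 0.683 CPM in tcESCs (4.81 ± 0.31, adjusted p = 8.6e-06). The largest falls were of Pdss1, which makes the side chain of ubiquinone (-2.27 ± 0.13 against tc;Sf1ESCs), and Fntb, the other subunit of farnesyltransferase (-1.61 ± 0.08).

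Fatty acid synthesis, which SREBP1 controls, had calls in both directions in SCLCs. Me1, the malic enzyme that supplies NADPH, had 49.4 and 50.8 CPM in tc;Sf1ESCs and 461 and 425 CPM in SCLCs (log2 3.15 ± 0.07), and Acss2, an acetyl-CoA synthetase, rose as well (2.88 ± 0.26). Fasn, the fatty acid synthase, had 1080 and 1106 CPM in tc;Sf1ESCs and 364 and 520 CPM in SCLCs (-1.30 ± 0.15, adjusted p = 0.000188), and Elovl6, a fatty acid elongase, fell too (-1.43 ± 0.08).

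In tod-PGCLCs 7 of the 35 were called higher than in tcESCs and 2 lower, beside 18.1% and 11.2% of all genes. Acss2 (3.26 ± 0.24) and Lipa (3.26 ± 0.11) had the largest rises, with Lipa at 34.7 and 31.6 CPM against 3.35 and 3.58 CPM. Gramd1b, a carrier of plasma membrane cholesterol (-1.70 ± 0.13), and Scd1, a fatty acid desaturase (-1.14 ± 0.18), were lower. Against SCLCs, 6 were called higher and 7 lower, beside 18.5% and 19.5% of all genes, among them Elovl6 (1.32 ± 0.07) and Pdss1 (1.41 ± 0.13) higher and Me1 (-4.05 ± 0.11) and Cyp27a1 (-2.84 ± 0.25) lower.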

How the data were processed

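Poly-A RNA of 8 libraries was sequenced strand-specifically as short paired-end reads. The authors filtered reads with Trim Galore, aligned them to GRCm38 with STAR 2.4.0 and deposited counts of reads per gene, made with HTSeq and not normalized. Their annotation release and strand setting are not given in the sources used here, so members that share exons with another gene are named as uncertain, which was not checked for genes off the member list. Between 20.5% and 27.5% of the reads in each file were set aside as not unique, 2.96% to 3.14% as ambiguous and 6.45% to 8.32% as in no gene, and these lines were left out of totals and tests. The authors' processing notes also name Picard and DESeq2.

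Of 46078 gene IDs, 45229 were named with GENCODE M21. The analysis ran in R 4.3.3 on edgeR 4.0.16 and limma 3.58.1. Genes with a mean count above 10 were kept, TMM factors computed and groups compared by the quasi-likelihood test, with the 6 ESC and SCLC libraries in one fit of 16481 genes and all 8 libraries in another of 16707 genes for tod-PGCLCs. CPM is a count over the library total times its TMM factor, times 1e+06. The SE is the log2 fold change over the root of F. A gene was called with an adjusted p under 0.05 and a fold over 2. P-values measure a spread between the 2 cultures of each group, which may be technical. It is pooled over all groups in the fit and drawn towards that of other genes. Between replicates the log2 differences over all genes were widest in SCLCs (SD 0.52). The limit of 3 counts covers counting error only.

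The members, lists, markers and motifs were chosen with earlier results of these data known. Values in every library are given for the 4 largest called rises and 4 largest called falls of each comparison and for the 5 SREBP regulators, and fold changes, not all with values by library, for the largest called changes each way among pathway genes off the member list, where the rule asked for 2 each way. Other values are printed where a sentence turns on them and were chosen after they were seen. A pathway gene counted off the member list is not reported here by name. Promoter windows are from RefSeq. The scripts were tested on simulated data. Each result was recomputed with RLE size factors or library totals, with filterByExpr or no filter beyond 1 count, on only the 4 libraries compared or on all 8, with DESeq2 1.42.0, with a replicate block, with an adjusted p limit of 0.01, with no fold limit, with edgeR's test against a 2-fold change, and without each library in turn.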

Additional observations from a re-analysis of the deposited data

How the results depend on the processing

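No log2 fold change of a called member changed sign under any alternative. For tc;Sf1ESCs against tcESCs, where 1 member was called, 0 were called at an adjusted p limit of 0.01 and 0 in the test against a 2-fold change, and leaving out a library gave 0 to 0. With no limit on the fold the counts were 11 for tc;Sf1ESCs against tcESCs, 23 for SCLCs against tc;Sf1ESCs, 16 for SCLCs against tcESCs, 21 for tod-PGCLCs against tcESCs and 17 for tod-PGCLCs against SCLCs. The count of 11 rests in part on the spread of the SCLC libraries, and its value in a fit of the ESC libraries alone is not given here. The test against a 2-fold change gave 4 for SCLCs against tc;Sf1ESCs and 3 for SCLCs against tcESCs. These follow from the rule for a call. Leaving out a library gave 5 to 6 and 7 to 8 in these comparisons, 4 to 5 for tod-PGCLCs against tcESCs and 5 to 8 against SCLCs. With the replicate number as a block the counts were 1, 6, 8, 4 and 6 in the order above, where Nr1h3 was lost against tc;Sf1ESCs. Same-numbered libraries of different groups deviated with correlations of -0.03 to 0.06 over 16707 genes, so no strong shift shared by replicate number was seen. With 2 libraries a group this cannot show whether same-numbered samples were prepared together. Scaling by library totals moved the median of all genes to 0.11 for tod-PGCLCs against tcESCs and 0.15 against SCLCs. Hsd17b7 was then called in the former (1.01) and Sc5d was not in the latter (-0.99), and this scaling put Dhcr7 at 0.98 in SCLCs against tcESCs. A fit of only the 4 libraries compared put it at 0.99, also under 2-fold. Nr1h3, at 4 to 22 counts, gained or lost calls most often among the members, and the cause was not tested.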
